A study of Mus musculus with 15 samples.

Results

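The genes examined were 6 that serve the thick ascending limb of the loop of Henle in mouse kidney: Slc12a1, Kcnj1, Bsnd, Umod, Casr and Ptger3. They were chosen by symbol, each had 1 row of the expression table annotated with that symbol alone, and they were 6 of 22180 genes measured under 1 symbol. Whole kidneys came from mice with a Rosa26-LSL-PRCC-TFE3 knock-in, in which a stop cassette silences the PRCC-TFE3 fusion until Cre recombinase removes it, crossed with KSP-Cre mice. The fusion links a splicing-associated protein to TFE3, which belongs to the MiT transcription factors, and is found in translocation renal cell carcinoma. Kidneys were taken at 4 months of age from 4 PRCC-TFE3;KSP-Cre- (Cre-) and 4 PRCC-TFE3;KSP-Cre+ (Cre+) mice. The 7-month groups held 3 Cre- and 4 Cre+ mice, and every mouse had an array of its own. The knock-in was therefore carried by the controls too, and no group carried KSP-Cre without it, so effects of the fusion and of the Cre transgene cannot be told apart. KSP-Cre uses the promoter of Cdh16, a cadherin of tubule epithelium, and its activity includes the thick ascending limb and collecting duct.

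The thick ascending limb reabsorbs salt without water. The cotransporter encoded by Slc12a1 (NKCC2) brings sodium, potassium and chloride in from the urine, the channel encoded by Kcnj1 (ROMK) returns potassium to it, and chloride leaves on the blood side through channels that need barttin, the product of Bsnd. Loss of any of these 3 proteins in people causes Bartter syndrome, a salt-wasting disease. Umod encodes uromodulin, the most abundant protein of normal urine, while Casr encodes the calcium-sensing receptor and Ptger3 the EP3 receptor for prostaglandin E2, both of which restrain salt transport there. Neither barttin nor ROMK is confined to this segment. Among other sites, barttin is also found in intercalated cells and the thin ascending limb, and ROMK in the collecting duct.

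Values are log2 expression as deposited after RMA normalization, so a difference of 1 is 2-fold, and levels of different genes are not compared because probes differ in brightness. Array medians were between 4.40 and 4.55, and precision is set by how many arrays each group holds. All 6 genes were bright, with mean values between the 78.0th and the 99.9th percentile of all genes, and Umod and Slc12a1 stood at the 99.9th and 99.8th. Whether such brightness narrows the measured range of these 2 genes was not tested. Adjusted p-values are from limma over all 22180 genes, two-sided, with 0.05 as the threshold, and SE is that of the same fit.

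The gene starts of Slc12a1 and Kcnj1, which were lower in Cre+ kidneys at 7 months than at 4 months, and of Umod, which was not, are printed from RefSeq (build GRCm38.p6), from 250 bases before to 50 after the annotated start. These coordinates are RefSeq's, and where the array's probes lie was not used here. Capitals mark matches to the motifs searched.
Slc12a1, chr2:125152350-125152649, plus strand: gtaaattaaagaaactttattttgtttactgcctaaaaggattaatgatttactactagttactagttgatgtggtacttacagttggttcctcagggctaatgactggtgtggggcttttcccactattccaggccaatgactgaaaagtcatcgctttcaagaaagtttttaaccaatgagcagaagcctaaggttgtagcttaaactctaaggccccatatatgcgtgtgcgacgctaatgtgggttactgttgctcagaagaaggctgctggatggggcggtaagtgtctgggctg
Kcnj1, chr9:32393735-32394034, plus strand: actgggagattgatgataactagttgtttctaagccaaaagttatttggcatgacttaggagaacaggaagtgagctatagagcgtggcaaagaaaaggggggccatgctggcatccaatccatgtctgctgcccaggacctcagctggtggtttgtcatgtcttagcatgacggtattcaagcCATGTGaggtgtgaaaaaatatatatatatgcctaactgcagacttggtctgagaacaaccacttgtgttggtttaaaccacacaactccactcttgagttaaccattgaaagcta
Umod, chr7:119479213-119479512, minus strand: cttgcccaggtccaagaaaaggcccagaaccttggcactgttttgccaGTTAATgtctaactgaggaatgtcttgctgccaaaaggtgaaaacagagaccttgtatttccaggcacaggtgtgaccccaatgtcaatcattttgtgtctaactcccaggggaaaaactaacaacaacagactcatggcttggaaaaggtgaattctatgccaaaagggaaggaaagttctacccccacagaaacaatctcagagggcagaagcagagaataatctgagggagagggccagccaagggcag
Both strands were searched for CACGTG (an E-box bound by MiT factors), CATGTG (the core of the M-box, also bound by them), GTTAAT (part of the site of HNF1, a tubule factor), TCAAGGTCA (a site of estrogen-related receptors) and TATAAA (the TATA box). None of these motifs contains another. Kcnj1 held CATGTG at position -66, counted from the gene start. Umod held GTTAAT at position -202, and Slc12a1 held none of the 5. Of 32851 RefSeq promoters of this length, 7.15% held CACGTG, 14.2% CATGTG, 7.1% GTTAAT, 0.423% TCAAGGTCA and 13.6% TATAAA. The promoters of Casr and Ptger3 held none of them, and 5 of the 6 genes had a promoter in the table, all except Bsnd. A match is a description of letters, not evidence of binding.

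The 6 genes did not move as a block. At 7 months the genes of potassium and chloride exit, Kcnj1 and Bsnd, fell in Cre+ kidneys, Slc12a1 stood lower just outside the threshold, Umod stood higher without passing, and no change of Casr or Ptger3 was detected. At 4 months only Bsnd of the 6 genes had passed the test. Among all genes 0.803% were called lower at 4 months and 10.8% at 7 months. In whole kidney, fewer cells of this segment and less RNA per cell cannot be told apart. Nor can either be told apart from a fall in other segments that express Bsnd or Kcnj1.

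**Figure D1:**
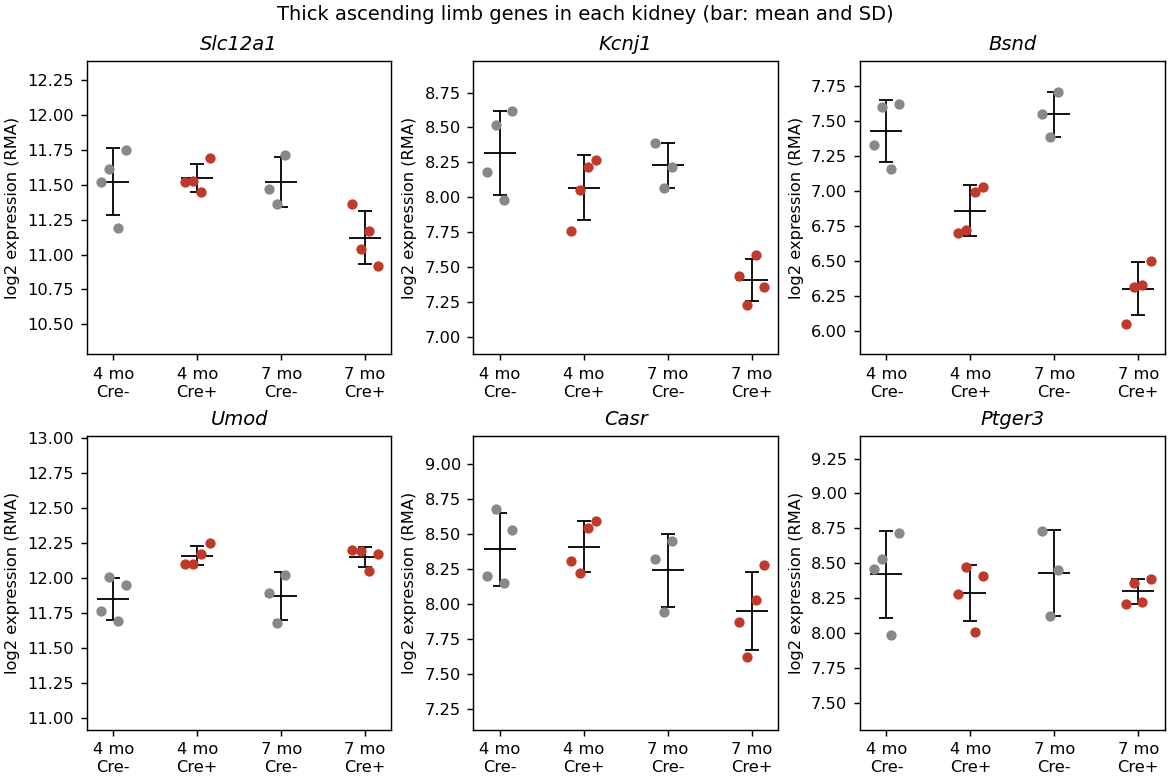
Log2 expression of the 6 genes (y axis, RMA values, each panel spanning 2.1 log2 units) in each kidney by group (x axis, grey Cre-, red Cre+), with black bars for the group mean and SD (n = 4, 4, 3 and 4). Bsnd of 7-month Cre+ kidneys lies between 6.05 and 6.50, below every other kidney, whereas Umod of Cre+ kidneys lies between 12.05 and 12.25, above every Cre- kidney.

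Bsnd, whose product barttin carries chloride channels to the membrane and keeps them active, had the largest Cre difference of the 6 genes at each age. Its log2 values were 7.33, 7.60, 7.16 and 7.62 in Cre- and 6.70, 6.72, 6.99 and 7.03 in Cre+ kidneys at 4 months. Every Cre+ kidney was below every Cre- kidney, and the means were 7.43 ± 0.22 (SD, n = 4) and 6.86 ± 0.18 (SD, n = 4). Bsnd fell by 0.57 on the log2 scale, a 1.48-fold decrease (SE 0.13, adjusted p = 0.021). This 4-month call was lost without Cre- replicate 2 (log2 change -0.51, adjusted p = 0.064), Cre- replicate 4 (-0.50, adjusted p = 0.066) or Cre+ replicate 2 (-0.52, adjusted p = 0.077), and under the linear model without moderation (adjusted p = 0.056).

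At 7 months Bsnd stood at 7.55, 7.39 and 7.71 in Cre- and at 6.05, 6.31, 6.33 and 6.50 in Cre+ kidneys. The groups were far apart, with a gap of 0.89 between the lowest control and the highest Cre+ kidney. Bsnd fell by 1.25, a 2.39-fold decrease (SE 0.14, adjusted p = 6.6e-06), and this held without each array in turn. The 7-month fall exceeded the 4-month fall by 0.69 on the log2 scale (SE 0.19, adjusted p = 0.079), which did not pass as fitted but passed in 5 of the alternatives, among them the fit with Y-linked expression as a covariate (adjusted p = 0.015) and median centring (adjusted p = 0.045). Within Cre+ kidneys Bsnd fell by 0.56 from 4 to 7 months (SE 0.13, adjusted p = 0.011), and within Cre- kidneys it differed by 0.12 (SE 0.14, adjusted p = 1).

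Kcnj1, the luminal potassium channel whose recycling of potassium lets the cotransporter run, showed its difference at 7 months. At 4 months it was at 8.18, 8.52, 7.98 and 8.62 in Cre- and at 7.76, 8.05, 8.22 and 8.27 in Cre+ kidneys. These groups overlapped, and the difference of -0.25 (SE 0.15, adjusted p = 0.43) was within their spread. At 7 months Kcnj1 was at 8.39, 8.07 and 8.22 in Cre- and at 7.44, 7.23, 7.59 and 7.36 in Cre+ kidneys, with no overlap. It fell by 0.82, a 1.77-fold decrease (SE 0.16, adjusted p = 0.00092), and kept its call without each array in turn. The change of effect between the ages was -0.57 (SE 0.22, adjusted p = 0.19), so a difference between 4 and 7 months was not shown, although it passed with the Y-linked covariate (adjusted p = 0.045). In Cre+ kidneys Kcnj1 fell by 0.67 from 4 to 7 months (SE 0.15, adjusted p = 0.0075).

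For Slc12a1, the cotransporter that loop diuretics block, no difference was detected at 4 months. It stood at 11.52, 11.61, 11.19 and 11.75 in Cre- and at 11.52, 11.53, 11.45 and 11.69 in Cre+ kidneys, where the Cre+ values lay inside the range of the controls. The difference of 0.03 (SE 0.13, adjusted p = 0.94) had a 95% interval from -0.24 to 0.31 and turned to -0.06 with each array centred on its median. At 7 months Slc12a1 was at 11.47, 11.36 and 11.71 in Cre- and at 11.36, 11.04, 11.17 and 10.92 in Cre+ kidneys. No Cre+ kidney exceeded a control, but the gap between the groups was only 0.0009. The difference of -0.39, or 1.31-fold (SE 0.14, adjusted p = 0.052), was at the threshold and passed without 4-month Cre- replicate 3 (adjusted p = 0.032), 4-month Cre- replicate 4 (adjusted p = 0.046) or 7-month Cre+ replicate 1 (log2 change -0.47, adjusted p = 0.027), and with median centring (-0.47, adjusted p = 0.013), the filter on dim genes (adjusted p = 0.032) or trend and robust variance (adjusted p = 0.029). Quantile normalization reduced it to -0.19 (adjusted p = 0.37).

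Within Cre+ kidneys Slc12a1 fell by 0.43 from 4 to 7 months (SE 0.13, adjusted p = 0.043), without overlap between the ages. With the replicate number as a block the adjusted p was 0.063, under the unmoderated model 0.068, and after quantile normalization the change was -0.29 (adjusted p = 0.17). The call was also lost without 4-month Cre- replicate 1 or 2, without any of the 4 Cre+ kidneys at 4 months, and without Cre+ replicate 2, 3 or 4 at 7 months, with log2 changes from -0.46 to -0.36 and adjusted p-values from 0.051 to 0.13.

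Umod, whose protein polymerises in urine and is made almost wholly in this segment, was not reduced. At 4 months it was at 11.76, 12.01, 11.69 and 11.95 in Cre- and at 12.10, 12.10, 12.17 and 12.25 in Cre+ kidneys. All Cre+ values were above all controls, with means of 12.16 ± 0.07 (SD, n = 4) against 11.85 ± 0.15 (SD, n = 4). The difference of 0.31, or 1.24-fold (SE 0.10, adjusted p = 0.12), did not pass as fitted and passed after quantile normalization (0.42, adjusted p = 0.02). At 7 months Umod was at 11.89, 11.68 and 12.02 in Cre- and at 12.20, 12.19, 12.05 and 12.17 in Cre+ kidneys, again without overlap. That difference was 0.29 (SE 0.11, adjusted p = 0.071), and it passed without 7-month Cre- replicate 3 (0.37, adjusted p = 0.035) and under 4 other settings, with adjusted p-values of 0.011 to 0.047. Without 7-month Cre- replicate 2 it was 0.19 (adjusted p = 0.31). The 95% interval at 7 months ran from 0.06 to 0.52. Umod in Cre+ kidneys had the same mean to within 0.01 at both ages, 12.16 and 12.15.

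The receptors showed no difference that passed. Casr, which senses calcium on the blood side and slows salt and calcium uptake, was at 8.20, 8.68, 8.15 and 8.53 in Cre- and at 8.31, 8.22, 8.54 and 8.59 in Cre+ kidneys at 4 months. The groups overlapped, and the difference was 0.03 (SE 0.16, adjusted p = 0.96), or -0.06 after median centring. At 7 months Casr was at 8.32, 7.94 and 8.45 in Cre- and at 7.87, 7.62, 8.03 and 8.28 in Cre+ kidneys, a difference of -0.29 (95% interval -0.65 to 0.07, adjusted p = 0.27) with overlapping groups. Without single arrays it ranged widely, at -0.44 without Cre- replicate 2 and -0.18 without Cre- replicate 3 or Cre+ replicate 2, and none of these passed. Between the ages, Casr of Cre+ kidneys differed by -0.46 (SE 0.16, adjusted p = 0.072), which passed without 7-month Cre+ replicate 4 (-0.58, adjusted p = 0.04) and with the Y-linked covariate (adjusted p = 0.016).

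Ptger3, whose EP3 receptor couples prostaglandin E2 to lower cyclic AMP, stood at 8.46, 8.53, 7.99 and 8.72 in Cre- and at 8.28, 8.47, 8.01 and 8.41 in Cre+ kidneys at 4 months. At 7 months it was at 8.73, 8.12 and 8.45 in Cre- and at 8.21, 8.36, 8.22 and 8.39 in Cre+ kidneys. The Cre+ kidneys lay inside the range of the controls at both ages. The differences were -0.13 (95% interval -0.46 to 0.20, adjusted p = 0.74) and -0.14 (95% interval -0.49 to 0.22, adjusted p = 0.63), so falls as large as those of Kcnj1 and Bsnd at 7 months lay outside the intervals.

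**Figure D2:**
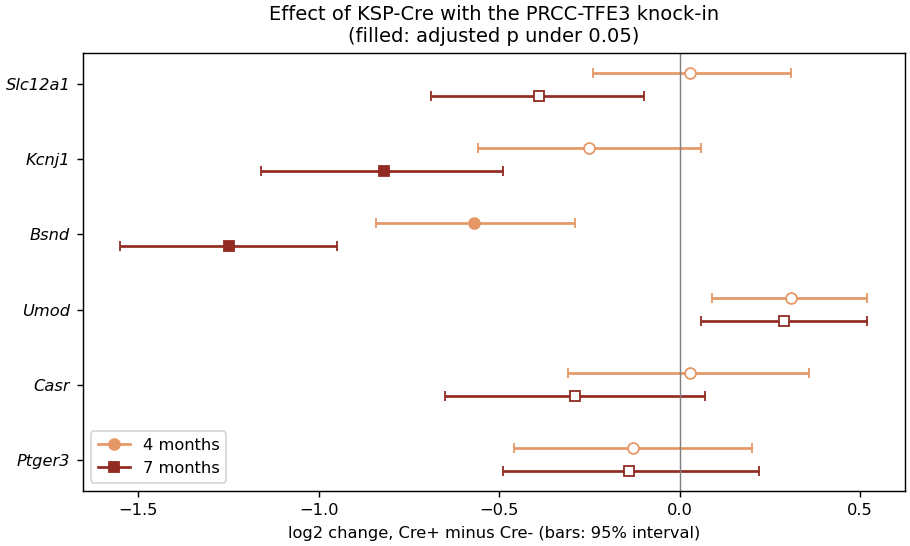
Log2 change of each gene, Cre+ minus Cre- (x axis), at 4 months (orange circles) and 7 months (dark red squares), with 95% intervals as bars and filled symbols where the adjusted p was under 0.05. Bsnd at both ages and Kcnj1 at 7 months are filled, and the Umod points lie to the right of 0.

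Counted together, 1 of the 6 genes was lower and 0 higher at 4 months, where 0.803% of all 22180 genes were called lower and 2.73% higher. At an unadjusted p under 0.05 the count higher was 1 (Umod), and the linear model without moderation called 0 in either direction after adjustment. At 7 months 2 were lower and 0 higher, against 10.8% and 11.7% of all genes. With each array centred on its median, the calls among all genes went from 606 higher and 178 lower to 497 and 511 at 4 months, and from 2597 and 2394 to 2337 and 3609 at 7 months. At 7 months 1 member was higher at an unadjusted p under 0.05, and the unmoderated model called it, again Umod. The median change of the 6 genes was -0.05 at 4 months and -0.34 at 7 months, beside 0.05 and -0.04 for all genes tested. Groups did not overlap for 2 of the 6 genes at 4 months (9.46% of all genes) and for 4 of 6 at 7 months (29.2% of all genes).

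The ages were compared within each genotype as well. From 4 to 7 months 3 of the 6 genes (Slc12a1, Kcnj1 and Bsnd) fell and 0 rose in Cre+ kidneys, against 6.71% and 4.12% of all genes, and 0 changed in Cre- kidneys, where limma called 1 of 22180 genes (0.00451%). The ages did not overlap in Cre+ kidneys for the same 3 genes (16.8% of all genes). In Cre+ kidneys 0 members were higher at an unadjusted p under 0.05 or by the unmoderated model. No member reached an unadjusted p under 0.05 in Cre- kidneys, by limma or by the unmoderated model, and the differences there ran from -0.15 for Casr to 0.12 for Bsnd. For the change of the Cre effect between the ages 0 members passed, 3 did at an unadjusted p under 0.05 (Bsnd, Kcnj1 and Slc12a1), and the unmoderated model called 0 after adjustment, against 1.18% of all genes called lower and 0.96% higher. The Cre comparisons share Cre+ arrays with the age comparison in Cre+ kidneys and Cre- arrays with that in Cre- kidneys. These counts are therefore not independent of each other.

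Whether the genes of the segment changed unequally was tested directly. The log2 value of a gene minus that of another was taken on each array, which removes any offset of the whole array, and Cre labels were permuted within each age. Averaged over both ages, 12 of the 15 pairs differed (two-sided exact permutation test over 2450 arrangements, adjusted over the 15 pairs), and 11 or 12 did so with any array left out. A difference between 2 genes is in log2 units and depends on each probe set responding in proportion, so it shows unequal change and not which gene held still.

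Umod moved apart from all 5 others in this average over both ages. Its Cre effect exceeded that of Bsnd by 1.21, of Kcnj1 by 0.83, of Slc12a1 by 0.48, and of Casr and Ptger3 by 0.43 each, with adjusted exact p-values of 0.0012 to 0.002. Bsnd moved below all 5 others, by 1.21 from Umod, 0.78 from both receptors, 0.73 from Slc12a1 and 0.37 from Kcnj1 (adjusted exact p = 0.0012 to 0.0024). Kcnj1 lay between, 0.36 below Slc12a1 (adjusted exact p = 0.0033). No unequal change was detected among Slc12a1, Casr and Ptger3, whose pairwise differences averaged 0.05 or less in size (adjusted exact p = 0.81 to 0.98). By age, Slc12a1 minus Ptger3 was 0.16 at 4 months and -0.25 at 7 months, Ptger3 minus Casr was -0.16 and 0.15, and Slc12a1 minus Casr was 0.01 and -0.11, none of them passing (adjusted exact p = 0.14 to 1).

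**Figure D3:**
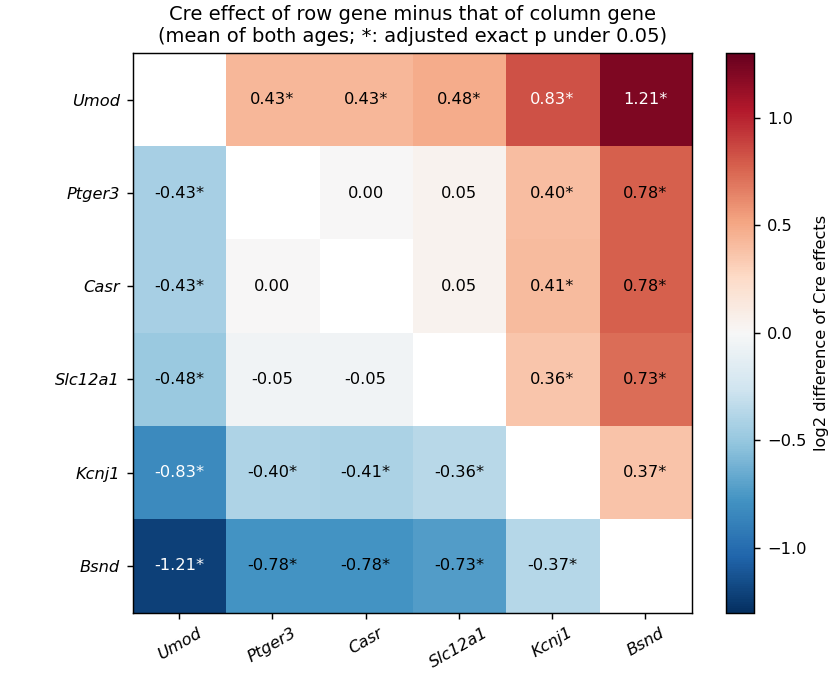
Difference between the Cre effect of the row gene and that of the column gene, in log2 units averaged over both ages, coloured from blue (row lower) to red (row higher), with an asterisk where the adjusted exact p was under 0.05. The Umod row is red and the Bsnd row blue throughout, and the 3 pairs among Ptger3, Casr and Slc12a1 carry no asterisk.

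Single arrays showed this separation to a differing degree. Bsnd minus Umod was between -4.53 and -4.29 in all 7 Cre- kidneys, between -5.40 and -5.18 in Cre+ kidneys at 4 months, and between -6.15 and -5.67 at 7 months. These 3 ranges did not overlap. Slc12a1 minus Umod was between -0.50 and -0.20 in Cre- kidneys, between -0.72 and -0.56 in Cre+ kidneys at 4 months and between -1.26 and -0.83 at 7 months, again in separate ranges. Bsnd minus Slc12a1 was between -4.19 and -3.92 in Cre- kidneys. In Cre+ kidneys it was -4.82 to -4.46 at 4 months, inside the 7-month range of -5.31 to -4.42. Kcnj1 minus Slc12a1 overlapped between Cre+ and Cre- kidneys at 4 months but not at 7 months, where it was at -3.93 to -3.56 against -3.49 to -3.08. At 4 months alone, where 0.029 is the smallest p that 70 arrangements allow, 8 of 15 pairs had an unadjusted p under 0.05 and 0 passed after adjustment. At 7 months alone 9 of 15 pairs passed at an adjusted exact p of 0.048, each with the smallest p that 35 arrangements allow, also 0.029. Bsnd did not pass there against Slc12a1 (adjusted exact p = 0.078) or Kcnj1 (adjusted exact p = 0.11), nor Umod against Casr (adjusted exact p = 0.078).

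**Figure D4:**
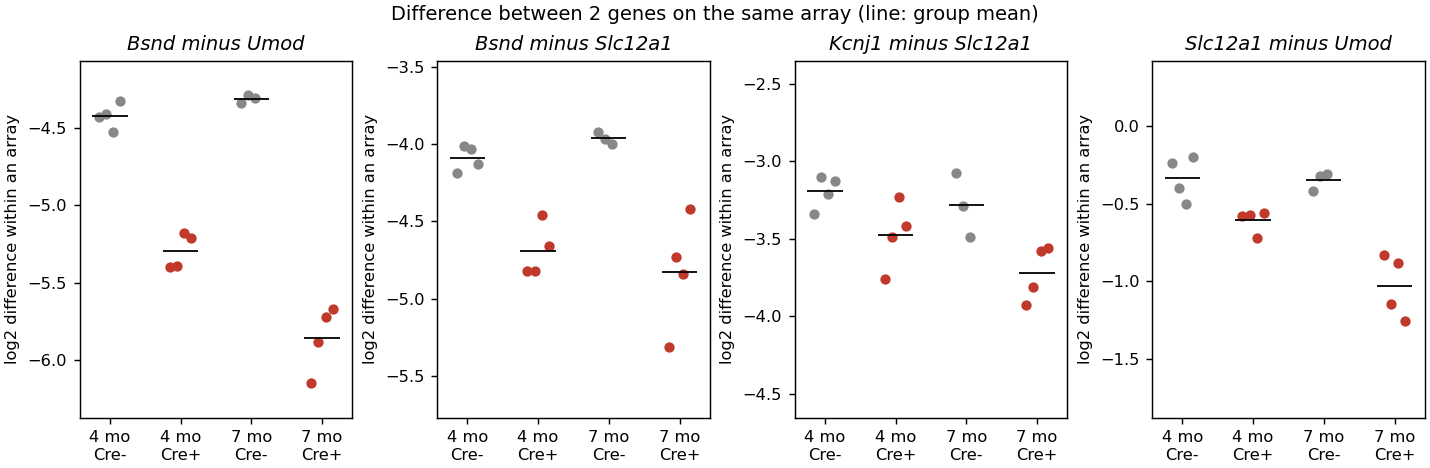
Difference in log2 value between 2 genes on the same array (y axis) for 4 pairs, by group (x axis, grey Cre-, red Cre+), with a line at each group mean. Bsnd minus Umod and Slc12a1 minus Umod step down from Cre- to 4-month Cre+ and again to 7-month Cre+ kidneys, with no overlap between these 3 levels.

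Other genes of the segment's function were taken from 6 lists with 60 measured members. At 4 months 2 rose and 6 fell, and at 7 months 9 rose and 22 fell, with median changes of -0.03 and -0.17. At 4 months 3.33% of the 60 thus rose and 10% fell, beside 2.73% and 0.803% of all genes. At 7 months 15% rose and 36.7% fell, beside 11.7% and 10.8% of all genes, and the counts per list are to be read against these shares. The lists were chosen with earlier results of these data known and are not limited to genes of this segment alone. All 8 proximal and all 5 distal convoluted tubule markers also fell at 7 months, so the shares do not describe the thick ascending limb alone. The transport list covers channels, pumps and tight junction proteins beside the cotransporter, and here 1 of 11 rose and 2 fell at 4 months, and 1 rose and 5 fell at 7 months (median -0.08 and -0.28). Cldn10, a claudin that makes the junction permeable to sodium, fell 1.46-fold at 4 months (SE 0.13 on the log2 scale, adjusted p = 0.021). At 7 months its decrease was 2.18-fold (SE 0.14, adjusted p = 1.3e-05). Its 4-month call was lost without Cre- replicate 1 (-0.53, adjusted p = 0.066) or 2 (-0.52, adjusted p = 0.056) or Cre+ replicate 3 (-0.52, adjusted p = 0.07) or 4 (-0.50, adjusted p = 0.073), and under the unmoderated model (adjusted p = 0.051).

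Cldn19, a claudin of the calcium and magnesium path, was the member of the transport list that rose, by 0.89 at 4 months (SE 0.17, adjusted p = 0.0063) and 0.75 at 7 months (SE 0.19, adjusted p = 0.0072). This rests on the brighter of its 2 table rows: the mean of both rows changed by 0.41 (adjusted p = 0.079) and 0.18 (adjusted p = 0.38). Its 7-month call was also lost without Cre- replicate 2 (0.59, adjusted p = 0.057). Cldn16, its partner in that path, was at -0.08 and -0.28 and did not pass. Fxyd2, a regulator of the sodium pump, fell 2.47-fold at 7 months (SE 0.13, adjusted p = 2.1e-06). Kcnj10 and Kcnj16, which form the basolateral potassium channel, fell by 0.67 and 0.66 at 7 months, whereas Atp1b1, the pump's beta subunit, was at -0.26 and did not pass. Slc9a3, a sodium-proton exchanger found chiefly in the proximal tubule, fell at both ages. Its 4-month decrease was 1.48-fold (SE 0.11 on the log2 scale, adjusted p = 0.007), and its 7-month decrease was 2.85-fold (SE 0.12, adjusted p = 1.8e-07).

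Among 13 genes listed as kinases and partners of the cotransporter, some acting only through its kinases, 0 rose and 1 fell at 4 months. At 7 months 1 rose and 5 fell. Like the other lists, this one is not limited to genes of the thick ascending limb. Wnk4, a kinase of the WNK pathway, fell by 0.84 (SE 0.14, adjusted p = 0.0017) and by 1.29 (SE 0.15, adjusted p = 8.6e-06) at the 2 ages. Klhl3, the ubiquitin ligase adaptor that targets WNK kinases, fell by 1.12 at 7 months (SE 0.16, adjusted p = 7e-05). Maged2, mutated in a transient Bartter syndrome of newborns, rose by 0.58 at 7 months (SE 0.15, adjusted p = 0.01), a call lost without 7-month Cre- replicate 3 (0.44, adjusted p = 0.066). Stk39, the SPAK kinase that phosphorylates the cotransporter, stood at 0.23 and 0.36 and did not pass at either age.

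Of 13 genes of hormone receptors and cyclic AMP signalling, 0 passed at 4 months, and 3 rose and 3 fell at 7 months. The 3 that rose, Adcy6 (an adenylyl cyclase), Calcr (the calcitonin receptor) and Gnai2 (an inhibitory G protein subunit), lost their calls without single arrays. Adcy6 went from 0.45 to 0.27 (adjusted p = 0.22) without 7-month Cre- replicate 2, and was also not called without 7-month Cre+ replicate 1, 3 or 4 (adjusted p = 0.052 to 0.095). Calcr lost its call without any of the 7-month arrays and without 4-month Cre- replicate 3 or 4 or Cre+ replicate 1 (0.43 to 0.55, adjusted p = 0.051 to 0.13), and with median centring (0.41, adjusted p = 0.065). Gnai2 lost it without any 7-month array other than Cre+ replicate 1 and without 4-month Cre- replicate 1, 2 or 3 or Cre+ replicate 3 (0.27 to 0.34, adjusted p = 0.054 to 0.14), and with median centring (0.24, adjusted p = 0.14). Of those that fell, the G protein subunit Gna11 lost its call without 7-month Cre- replicate 1 or 3 or Cre+ replicate 1, 2 or 4, any 4-month Cre- array or 4-month Cre+ replicate 3 (-0.39 to -0.29, adjusted p = 0.052 to 0.18). Pth1r, the parathyroid hormone receptor, fell by 1.38 (SE 0.15, adjusted p = 3.4e-06) and Gcgr, the glucagon receptor, by 0.98 (SE 0.18, adjusted p = 0.00052) at 7 months. Avpr2, the vasopressin receptor, was at 0.27 and -0.02 and did not pass. Of 9 prostaglandin E2 genes, 1 rose at 4 months, and 2 rose and 2 fell at 7 months. The gene that rose at 4 months was Slco2a1, a prostaglandin transporter (0.63, adjusted p = 0.021), a call lost without Cre- replicate 1 or 3 or Cre+ replicate 2, 3 or 4 (0.54 to 0.61, adjusted p = 0.066 to 0.087). Slco2a1 rose by 0.86 (SE 0.16, adjusted p = 0.00064) and Ptger4, the EP4 receptor, by 0.96 (SE 0.22, adjusted p = 0.0043) at 7 months, and Ptges2, a synthase, fell by 0.68 (SE 0.14, adjusted p = 0.002).

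The list of secreted proteins, other markers and transcription factors had 0 of 11 rising and 3 falling at 4 months, and 1 rising and 7 falling at 7 months (median -0.16 and -0.50). Egf, a growth factor precursor made in the thick ascending limb and distal convoluted tubule, fell by 0.77 (SE 0.16, adjusted p = 0.01) and by 2.21, or 4.63-fold (SE 0.17, adjusted p = 1.4e-07). Tmem207, a membrane protein, fell by 2.46 at 7 months (SE 0.22, adjusted p = 6.6e-07). Its 4-month fall of 0.92 (SE 0.21, adjusted p = 0.018) came with overlapping groups and was lost without Cre- replicate 1 (-0.90, adjusted p = 0.054) or 4 (-0.79, adjusted p = 0.058) or Cre+ replicate 2 (-0.83, adjusted p = 0.069) or 3 (-0.86, adjusted p = 0.066), and under the unmoderated model (adjusted p = 0.079). Esrrb and Esrrg, nuclear receptors of energy metabolism, fell by 1.38 and 0.65 at 7 months, and Irx2, a homeobox factor, rose by 0.83. Among 3 macula densa genes Nos1, the neuronal nitric oxide synthase, rose by 0.85 at 7 months (SE 0.15, adjusted p = 0.00037). Its means there were 4.26 in Cre- and 5.11 in Cre+ kidneys, so it was dim, the median of all gene values being 5.0. Esrrb (5.57 and 4.19) and Calcr of the hormone list (4.29 and 4.77) were also near or below that median at 7 months.

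**Figure D5:**
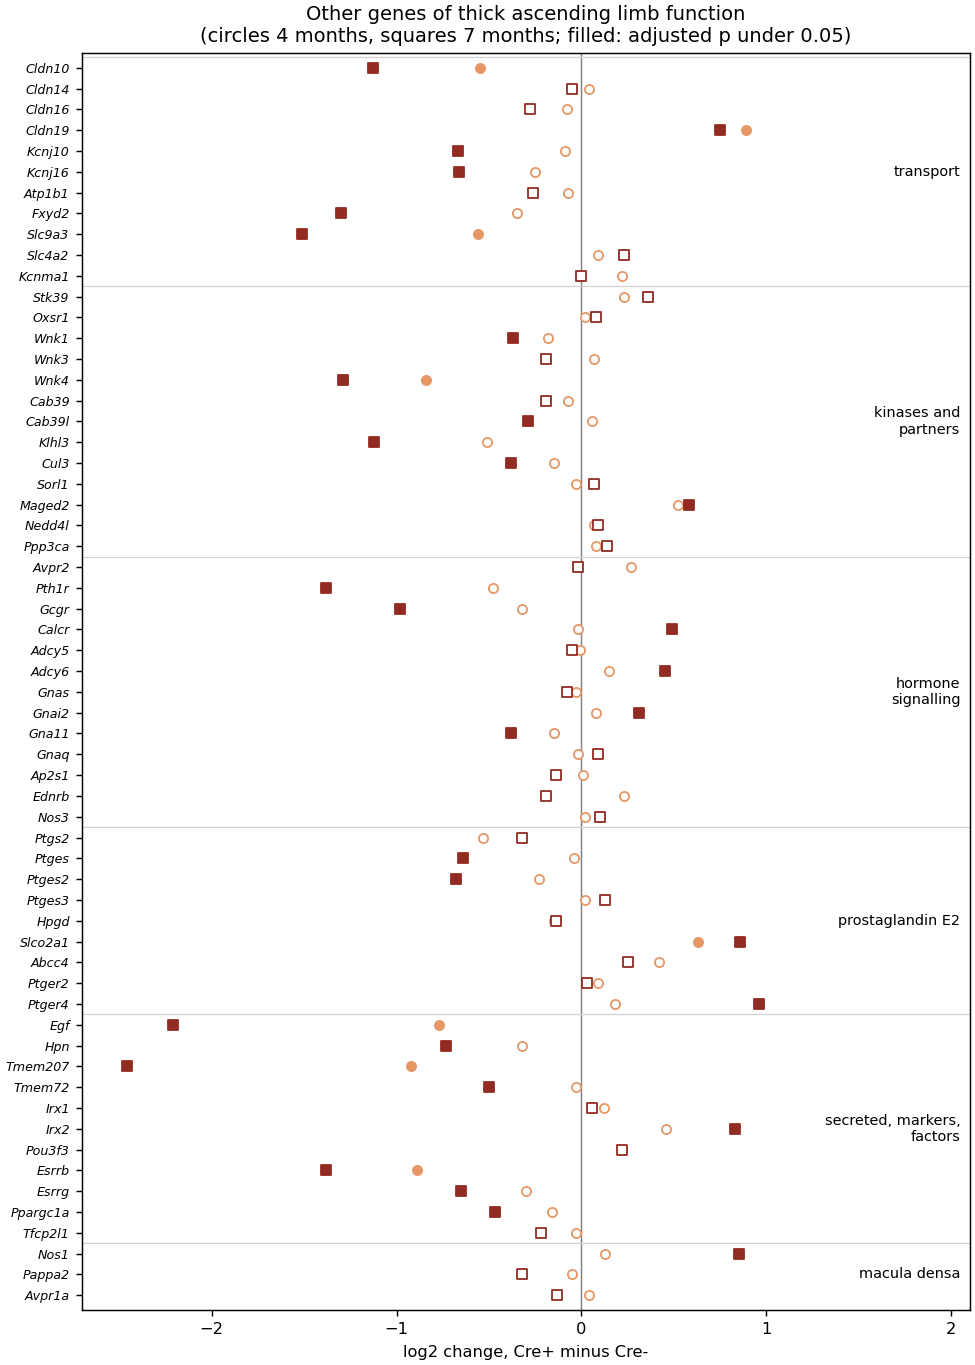
Log2 change, Cre+ minus Cre- (x axis), of the 60 other genes by list (y axis), with circles for 4 months, squares for 7 months and filled symbols where the adjusted p was under 0.05. Most filled squares lie left of 0, Egf and Tmem207 farthest at -2.21 and -2.46, while Cldn19, Slco2a1, Ptger4, Irx2 and Nos1 lie right of it.

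Markers of other kidney cells moved in the same arrays, and their part in the results above was not tested. Their counts, here and in the next paragraph, are to be read beside the shares of all genes. These were 0.803% lower and 2.73% higher at 4 months, and 10.8% lower and 11.7% higher at 7 months. Intercalated cells are among the other sites of barttin, not the only one, and 4 of their 5 markers fell at 7 months, with a median of -0.72. The mean level of those 5 was 7.49 to 8.04 in Cre- kidneys over both ages, 7.61 to 7.93 in Cre+ kidneys at 4 months, where 0 fell and 1 rose, and 6.91 to 7.25 at 7 months. The marker that rose at 4 months was Atp6v0d2, a proton pump subunit (0.59, adjusted p = 0.016), whose groups did not overlap. All 8 proximal tubule markers and all 5 distal convoluted tubule markers fell at 7 months (median -1.28 and -0.76). At 4 months 2 of 8 and 1 of 5 fell (median -0.27 and -0.44), and 0 rose. Proximal levels were 11.29 to 11.43 in Cre-, 10.96 to 11.18 in 4-month Cre+ and 9.70 to 10.31 in 7-month Cre+ kidneys. Distal levels in the same order were 8.27 to 8.91, 7.71 to 8.47 and 7.36 to 7.99.

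Markers of infiltrating and stromal cells were higher. All 7 macrophage markers rose at 7 months (median 1.53) and 3 of 7 at 4 months, with mean levels of 6.21 to 6.82 in Cre-, 6.94 to 7.29 in 4-month Cre+ and 7.84 to 8.20 in 7-month Cre+ kidneys. Of 6 fibroblast and smooth muscle genes 3 rose at each age (median 0.45 and 0.66), with mean levels of 7.29 to 7.78, 7.73 to 8.34 and 8.27 to 8.53. All 5 tubule injury markers rose at 7 months (median 2.96) and 2 at 4 months, at 4.90 to 5.38, 5.59 to 6.45 and 7.15 to 7.75. Of 5 principal cell markers 1 rose and 0 fell at each age, with levels of 8.12 to 8.55, 8.58 to 9.0 and 8.25 to 8.56. Of 4 podocyte markers 0 passed at 4 months and 3 fell at 7 months (median -0.61), with levels of 6.29 to 6.61, 6.01 to 6.48 and 5.79 to 6.14. Of 5 endothelial markers 0 and 2 fell, with levels of 8.23 to 8.55, 8.35 to 8.64 and 7.81 to 8.30. Cdh16, whose promoter drives Cre, was at -0.17 at 4 months (adjusted p = 0.55) and fell 1.35-fold at 7 months (SE 0.13 on the log2 scale, adjusted p = 0.026).

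Within the Cre- groups, replicate 3 of the 4-month Cre- kidneys and replicate 2 of the 7-month Cre- kidneys were the lowest array of their group for all 6 genes. In the Cre+ groups no array was lowest for more than 3 of the 6 genes, but replicate 4 of the 4-month Cre+ kidneys was highest for 5. Replicate 4 of the 4-month and replicate 3 of the 7-month Cre- kidneys were each highest for 4. Sex is not among the labels, and Y-linked genes were high (6.92 or more) in 8 arrays and low (2.98 or less) in 7, both kinds occurring in every group. When the high and the low arrays were fitted separately, a split chosen after the data were seen, Bsnd fell by 1.37 and 1.14 at 7 months (adjusted p = 0.00024 and 0.0025) and Kcnj1 by 0.81 and 0.91 (adjusted p = 0.0058 and 0.0085), the low arrays holding a single 7-month control. At 4 months Bsnd was at -0.53 (adjusted p = 0.14) and -0.60 (adjusted p = 0.058) there. Umod was at 0.38 and 0.23 at 4 months and at 0.34 and 0.22 at 7 months, and Slc12a1 at -0.34 and -0.43 at 7 months, none of them passing. The Cre differences of Ptger3 in the high and the low arrays were 0.15 and -0.42 at 4 months and 0.0 and -0.42 at 7 months. Whether the 2 kinds of array differ in this was not tested. A fit with a term for this split beside the group means was also added after the data were seen. There Kcnj1 and Casr were lower in the high arrays, with differences of -0.31 (SE 0.08) and -0.33 (SE 0.09), each with an adjusted p of 0.042. Of all genes 3.4% were called for this term, and Bsnd (-0.25, adjusted p = 0.11), Ptger3 (-0.15), Umod (-0.08) and Slc12a1 (-0.05) did not pass.

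The genes whose values most resembled each of the 6 over all 15 arrays were named as a description, by Pearson correlation among genes with an annotated name. For Bsnd they were Me3, a mitochondrial malic enzyme (r = 0.97), Ppp1r1a, a phosphatase inhibitor (0.97), and Lrrc52, a leucine-rich repeat protein (0.96). For Kcnj1 they were Cabcoco1 (0.96), Shank2, a scaffold protein (0.96), and P3h2, a collagen-modifying hydroxylase (0.95). Umod was most like Ildr1, a tight junction protein (0.95), Tspan12, a tetraspanin (0.94), and Sim2, a transcription factor (0.94). Slc12a1 was most like Aqp4, a water channel (0.90), Pla1a, a phospholipase (0.89), and Ptprk, a receptor phosphatase (0.87), and Casr like Tmem117 (0.94), Spire1, an actin nucleator (0.93), and Gpat3, an acyltransferase (0.92). For Ptger3 the correlations were lower, at 0.76 to 0.80, with the mitotic gene Spag5 and the olfactory receptors Olfr322 and Olfr808. The 15 arrays fall into 4 groups and share their normalization, and the names are the highest of 22180, so no test is attached.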

How the data were processed

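RNA of whole flash-frozen kidneys, 1 mouse per array, was measured on Affymetrix Mouse Gene 2.0 ST arrays. The deposited values are log2 expression, made by the authors with Partek 6.6 and RMA per the submitters' processing notes; that the scale is log2 was read from the values. Arrays measure hybridisation, so no sequencing depth applies.

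Of 41345 table rows, 23521 had 1 gene symbol, 1814 several and 16010 none. Symbols were updated by Entrez identifier to RefSeq GRCm38.p6 (23328 rows matched), and for 1082 genes with several rows the brightest was kept, which left 22180 genes without a filter. All 15 arrays entered 1 limma fit of the 4 group means (limma 3.58.1, R 4.3.3), with 5 contrasts and Benjamini-Hochberg adjustment over all genes. Pairs of members were compared by exact permutation (Python 3.11.15, numpy 2.4.6, pandas 2.3.3, matplotlib 3.10.9), and both procedures were tested on simulated data.

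The members and lists were chosen with earlier results of these data known. Named genes were the members, Cdh16, up to 3 rising and 3 falling genes per list and age (up to 2 as values where none passed), and the 3 most correlated genes per member; others, such as Kcnj10, Kcnj16 and Esrrg, were named after their values were seen. Listed genes without a row of 1 symbol were not analysed here.

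Same-numbered arrays shared deviations in every pair between Cre+ kidneys of the 2 ages (r = 0.167 to 0.298), and all these pairs were of like Y-linked level. In other comparisons same-numbered pairs of like level correlated positively (0.187 to 0.257) and those of unlike level negatively (-0.469 to -0.059). The replicate block is given beside the comparison of ages in Cre+ kidneys because every same-numbered pair there was positive. Differently numbered Cre+ arrays of like Y-linked level correlated as well (r = 0.182 to 0.373), and those of unlike level negatively (-0.355 to -0.139). The shared deviations were thus not particular to equal numbers, and their source was not tested. Alternatives were quantile normalization, a filter on dim genes, the plain linear model, trend and robust variance, median centring, 2 groups only, the block, a Y-linked covariate, the mean of a gene's rows and each array left out.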

Additional observations from a re-analysis of the deposited data

Results flagged for a closer look

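The interaction term was checked for 30 genes, the 6 members and the genes named by rule from the 6 lists. Effects of Cre differed between the ages for 5 of the listed genes, all lower, and for 0 of the 6 members. Among all genes 1.18% were called lower and 0.96% higher by this term. The listed genes had been named for large Cre changes on these same arrays, which favours a change between the ages. Their count is therefore not to be weighed against these shares or against the members. Over the whole lists 2 of 11 transport, 1 of 13 hormone and 2 of 11 secreted protein and marker genes were called lower, and 0 in the other lists. Markers of other kidney cells were outside this check, and 4 of 8 proximal tubule markers were also called lower. The 7-month change exceeded the 4-month change by -1.54 for Tmem207 (SE 0.30, adjusted p = 0.015), -1.45 for Egf (SE 0.23, adjusted p = 0.0049), -0.95 for Slc9a3 (SE 0.16, adjusted p = 0.007), -0.95 for Fxyd2 (SE 0.18, adjusted p = 0.011) and -0.90 for Pth1r (SE 0.20, adjusted p = 0.026), all on the log2 scale.

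Of 90 groups of 4 arrays checked for an array far from the rest, 3 had a gap above 0.829 of the range, and chance gives about 1 in 20. Fxyd2 of 4-month Cre+ replicate 2 was at 8.99 against 9.29 to 9.34 in the other arrays (ratio 0.846). Gnai2 of 7-month Cre+ replicate 1 was at 8.21 against 8.52 to 8.58 (ratio 0.83). Irx2 of 7-month Cre+ replicate 3 was at 7.63 against 7.11 to 7.16 (ratio 0.916). No value of the 6 members was among them.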

How the results depend on the processing

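Under all planned settings Kcnj1 and Bsnd stayed called lower at 7 months, from -0.90 to -0.74 and from -1.33 to -1.17. The count of members higher at 4 months was 1 with quantile normalization. The count lower at 4 months was 0 under the plain linear model and within the high or the low arrays by Y-linked genes, and 0 to 1 with each array left out. The count higher at 7 months was 1 with the filter, quantile normalization, trend and robust variance or the plain linear model, and 0 to 1 with each array left out. For the change of effect, 1 member was lower with the filter, quantile normalization, median centring or the replicate block, and 2 with the Y-linked covariate. The count lower from 4 to 7 months in Cre+ kidneys was 0 in the arrays of high Y-linked values.

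Signs turned only for differences that did not pass. Median centring gave -0.06 for Slc12a1 and for Casr at 4 months, 0.01 for Slc12a1 with age in Cre- kidneys, 0.02 for Umod with age in Cre+ kidneys and 0.01 for the change of effect of Ptger3. Quantile normalization gave 0.01 for Slc12a1 with age in Cre- kidneys and 0.06 for the change of effect of Ptger3, and the replicate block and the Y-linked covariate gave 0.02 and 0.01 for that age difference of Slc12a1. In arrays of high Y-linked values the age differences in Cre- kidneys were 0.19 for Slc12a1, 0.07 for Kcnj1 and 0.02 for Casr, those in Cre+ kidneys 0.09 for Umod and -0.09 for Ptger3, and the 4-month Cre differences 0.15 for Ptger3 and 0.01 for Pappa2. In arrays of low values they were -0.09 for Umod and -0.06 for Bsnd with age in Cre- kidneys, and -0.11 for Slc12a1 and -0.04 for Casr at 4 months.

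With each array left out, 4-month differences ran from -0.08 to 0.11 (Slc12a1), -0.05 to 0.12 (Casr) and -0.14 to 0.04 (Pappa2), and that of Ptger3 at 7 months from -0.30 to 0.01. The change of effect ran from -0.11 to 0.06 (Umod) and -0.17 to 0.14 (Ptger3). Age differences in Cre- kidneys ran from -0.11 to 0.08 (Slc12a1), -0.06 to 0.11 (Umod), -0.21 to 0.00 (Kcnj1) and -0.14 to 0.17 (Ptger3), and in Cre+ kidneys from -0.02 to 0.03 (Umod) and -0.09 to 0.06 (Ptger3). The cause of these shifts was not tested. Among all genes, calls at 4 months were 606 higher and 178 lower as deposited and 497 and 511 after median centring, at 7 months 2597 and 2394 against 2337 and 3609, for the change of effect 213 and 262 against 321 and 273, and for age in Cre+ kidneys 914 and 1488 against 1325 and 1107 after quantile normalization. The replicate block changed no other call of a member than those of Slc12a1 with age and of the change of effect of Bsnd (-0.75, adjusted p = 0.046).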
